A study of Mus musculus with 2 samples.

Results

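Cholangiocytes, the epithelial cells that line the bile ducts, made up 158 of the 3035 cells of a pair of single-cell RNA libraries from mouse liver. A barcode was taken as a cell if it held 500 or more UMIs (unique molecular identifiers, each standing for 1 captured RNA molecule) from 250 or more genes, with no more than 20% of them mitochondrial. The cholangiocytes were then chosen by their UMI counts of marker genes. A cell was one when Spp1, Sox9, Epcam, Krt19, Krt8, Krt18 and Tm4sf4 summed to at least 15 UMIs with at least 3 of the 7 genes detected, while the leukocyte gene Ptprc had at most 1 UMI and the endothelial gene Ptprb at most 5. This left 86 cholangiocytes among 1149 cells of the PCB126 library and 72 among 1886 cells of the Control library. PCB126 is a polychlorinated biphenyl of the dioxin-like kind and a strong activator of the aryl hydrocarbon receptor (AHR). The PCB126 library came from the liver of 1 C57/BL6 mouse dosed with PCB126 at 20 µg/kg/day in peanut oil, and the Control library from 1 C57/BL6 mouse that received the peanut oil alone. The Control mouse bears the label "Untreated", the protocol names a single gavage although the dose is per day, and the age label (postnatal day 21) does not say which time point it marks. Both livers were taken after 5 weeks of exposure and a 12-hour fast, dissociated with enzymes, depleted of hepatocytes by spins and a strainer, freed of red cells by lysis and loaded for 6000 cells on a droplet 3′ platform. With 1 mouse per group, mouse and treatment cannot be told apart, and no test between the groups was possible.

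Cholangiocytes modify the bile made by hepatocytes. Secretin raises cyclic AMP in them, chloride leaves through the CFTR channel, and an exchanger trades it for bicarbonate, while cilia on their apical side sense flow and bile composition. In inflamed livers they can display antigen on MHC molecules and release chemokines. The AHR, once bound by a dioxin-like ligand, enters the nucleus with ARNT and switches on a set of detoxifying genes led by Cyp1a1. Interferon gamma raises antigen presentation genes and a family of immunity-related GTPases, many of which carry a gamma-activated site (GAS) in their promoters.

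The promoters of 5 antigen presentation and interferon genes that differed between the libraries, and that of Cyp1a1, are shown because later results turn on these genes. Each window is the 250 bases before the start site in RefSeq (build GRCm38.p6), read 5′ to 3′ on the strand of the gene. An entry was found for 45 of the 58 members of the MHC class I, MHC class II and interferon lists. In the first 3 windows capitals mark a GAS motif (TTCNNNGAA) or the core of an interferon-stimulated response element (ISRE, GAAA, any 2 bases and GAAA again). In the H2-Aa and H2-Eb1 windows they mark CCAAT boxes, and in the Cyp1a1 window the core of the AHR's response element (GCGTG), all sought on both strands. Igtp lay at chr11:58199306-58199555, plus strand, Irgm2 at chr11:58214727-58214976, plus strand, and B2m at chr2:122147437-122147686, plus strand. H2-Aa lay at chr17:34287824-34288073, minus strand, H2-Eb1 at chr17:34305617-34305866, plus strand, and Cyp1a1 at chr9:57697363-57697612, plus strand.
Igtp: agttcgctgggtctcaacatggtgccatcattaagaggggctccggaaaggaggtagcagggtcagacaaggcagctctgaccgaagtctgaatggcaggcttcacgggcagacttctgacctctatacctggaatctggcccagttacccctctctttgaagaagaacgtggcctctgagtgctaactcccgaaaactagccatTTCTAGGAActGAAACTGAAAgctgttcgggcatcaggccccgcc
Irgm2: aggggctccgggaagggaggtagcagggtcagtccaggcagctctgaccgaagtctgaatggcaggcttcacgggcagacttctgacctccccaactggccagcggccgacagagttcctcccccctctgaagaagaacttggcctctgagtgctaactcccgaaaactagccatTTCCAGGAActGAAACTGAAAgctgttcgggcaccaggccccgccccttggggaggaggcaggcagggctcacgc
B2m: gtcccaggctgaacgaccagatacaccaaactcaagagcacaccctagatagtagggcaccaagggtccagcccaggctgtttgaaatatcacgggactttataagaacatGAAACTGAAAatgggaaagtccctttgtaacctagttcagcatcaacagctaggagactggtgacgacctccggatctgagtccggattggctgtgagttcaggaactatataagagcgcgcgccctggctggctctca
H2-Aa: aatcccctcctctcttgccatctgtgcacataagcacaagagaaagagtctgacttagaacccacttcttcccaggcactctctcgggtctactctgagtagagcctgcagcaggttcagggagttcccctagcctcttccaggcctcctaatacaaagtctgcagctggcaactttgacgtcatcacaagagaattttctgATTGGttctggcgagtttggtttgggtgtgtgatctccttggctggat
H2-Eb1: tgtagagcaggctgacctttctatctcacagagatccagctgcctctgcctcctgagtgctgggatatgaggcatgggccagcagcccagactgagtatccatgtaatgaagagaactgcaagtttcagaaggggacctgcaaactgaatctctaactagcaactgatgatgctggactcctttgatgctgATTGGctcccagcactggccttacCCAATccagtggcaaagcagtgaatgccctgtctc
Cyp1a1: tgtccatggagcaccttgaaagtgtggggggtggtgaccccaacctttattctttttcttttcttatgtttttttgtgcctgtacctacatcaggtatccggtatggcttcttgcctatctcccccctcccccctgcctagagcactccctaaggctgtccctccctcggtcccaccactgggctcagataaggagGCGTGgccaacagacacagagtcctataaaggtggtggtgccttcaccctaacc

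Igtp and Irgm2, which lie near each other on chromosome 11, held the same pair of motifs in the same order, with the GAS motif 45 and 75 bases before the start and the ISRE core 34 and 64 bases before it. B2m held an ISRE core 139 bases before the start, H2-Aa a CCAAT box at 48 bases, H2-Eb1 boxes at 59 and 35 bases and Cyp1a1 a GCGTG at 54 bases. Irgm2 also held a GCGTG 5 bases before the start, and B2m a CCAAT box at 53 bases, which are not in capitals above. Of genes named below whose windows are not printed, Tap1, Psmb8, Psmb9, H2-D1, Fos and Atf3 also held GCGTG. GAS letters also occurred in the windows of Psmb8, Bst2 and Socs3, and ISRE cores in those of Irgm1, Bst2 and Gbp2. No marked motif overlapped another. Among 32851 promoter windows of the same length, 7.02% held a GAS motif, 2.98% an ISRE core, 33.8% a CCAAT box and 28.2% the letters GCGTG. A match of letters is a description and not evidence of binding.

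The gate caught a compact group. All 7 gate genes were detected in 79 of 86 PCB126 cells and in 63 of 72 Control cells. Their summed UMIs per cell had a median of 251 in the PCB126 library and 209.5 in the Control library, far above the threshold of 15. The lowest sums inside the gate were 22, 36 and 36 in the PCB126 library and 17, 18 and 46 in the Control library, and the highest sum outside it was 11 in the PCB126 library. In the PCB126 library 1 barcode that passed the sum was left out by Ptprc and 3 by Ptprb, and in the Control library none was. Spp1, the matrix protein osteopontin, stood at 11060.0 CPM (UMIs summed over the cholangiocytes of a library and scaled to their total) in PCB126 cells and 13415 CPM in Control cells. The transcription factor gene Sox9 stood at 961 and 925 CPM, and Epcam, an epithelial adhesion molecule, at 923 and 807 CPM, in PCB126 and Control cells in that order. These values chose the cells and are no result.

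Genes that the gate did not use bore the same identity. Krt7, a duct keratin, stood at 126 CPM in PCB126 cholangiocytes and at 1.45 CPM in the cells of a PCB126 endothelial gate (Ptprb over 5, Ptprc at most 1). In the Control library Krt7 stood at 111 CPM in cholangiocytes and had 0 UMIs in the endothelial gate. The PCB126 endothelial gate includes the 3 barcodes that Ptprb left out above. Spp1 had 683 UMIs in that gate and 12 in the Control endothelial gate. Cftr, the chloride channel of bile secretion, stood at 38.7 CPM in PCB126 cholangiocytes and 32.4 CPM in Control cholangiocytes, and Sctr, the secretin receptor, at 20.8 and 17 CPM. Pkhd1, which encodes the ciliary protein fibrocystin, stood at 387 CPM in PCB126 cells and 245 CPM in Control cells. Of markers of other cell types, 12 of 13 T and NK genes had 0 UMIs in the cholangiocytes of either library. Among leukocyte genes 4 of 6 had 0 UMIs in PCB126 cells and 1 of 6 in Control cells, and their sum was 0.0439% and 0.121% of the level in a leukocyte gate (Ptprc over 1, Ptprb at most 5). Sinusoidal endothelial markers summed to 0.333% of the endothelial gate's level in the PCB126 library and 0.258% in the Control library. The Ptprc and Ptprb limits leave out leukocytes and endothelial cells, so these low levels follow in part from the rule. Hepatocyte markers, which no limit screened, summed to 6184 CPM in PCB126 cholangiocytes and 8172 CPM in Control cholangiocytes. They summed to 361 and 472 CPM in PCB126 and Control endothelial cells.

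Together the PCB126 cholangiocytes held 1679206 UMIs, and the median cell had 15955.5 UMIs from 4665 genes. The Control cholangiocytes held 1297534 UMIs, and their median cell had 11103 UMIs from 3493 genes. The median mitochondrial share was 8.12% in PCB126 cells and 6.75% in Control cells. No barcode among these cells occurred in both libraries, whereas 3 of all deposited barcodes did. Some cells stood apart. In the PCB126 library 3 cells held at least 20 Cyp1a1 UMIs, and in the Control library 4 cells held at least 200 haemoglobin (Hbb-bs) UMIs, 2145 of the 2592 in the class. Results that rest on them are given with and without them.

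The share of cholangiocytes depended on what they were counted against. They were 7.48% of the PCB126 cells (95% interval 6.03 to 9.16) and 3.82% of the Control cells (2.999 to 4.78), a ratio of 1.96 (1.42 to 2.72). Among cells with at most 1 Ptprc UMI, which leaves out most leukocytes, they were 86 of 773 (11.1%, 8.996 to 13.6) in the PCB126 library and 72 of 505 (14.3%, 11.3 to 17.6) in the Control library. That ratio was 0.780 (0.564 to 1.08), on the other side of 1. With at most 10% mitochondrial UMIs the first ratio was 3.62, and with at most 50% it was 1.18. Intervals here are at 95% and exact, of the Clopper-Pearson kind for shares and conditional binomial for ratios, and they cover counting error only. These shares describe suspensions after hepatocyte removal, not livers.

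Most genes stood at like levels in PCB126 and Control cholangiocytes. Of 4880 genes with at least 100 UMIs over both libraries, 92.4% lay within 1.5-fold, and the median log2 ratio of PCB126 over Control was 0.09. Past 2-fold, 43 genes were higher in PCB126 cells (0.881%) and 36 were higher in Control cells (0.738%). Scaled by the median ratio in place of the class total, these were 36 and 46 genes. Among the 9871 genes with at least 20 UMIs, the level at which list members are counted below, 2.42% were past 2-fold higher in PCB126 cells, 1.74% in Control cells, 58.7% had a log2 ratio above 0 and 41.3% below 0, with a median of 0.08. Among those with at least 100 UMIs, 61.6% lay above 0 and 38.4% below.

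**Figure D1:**
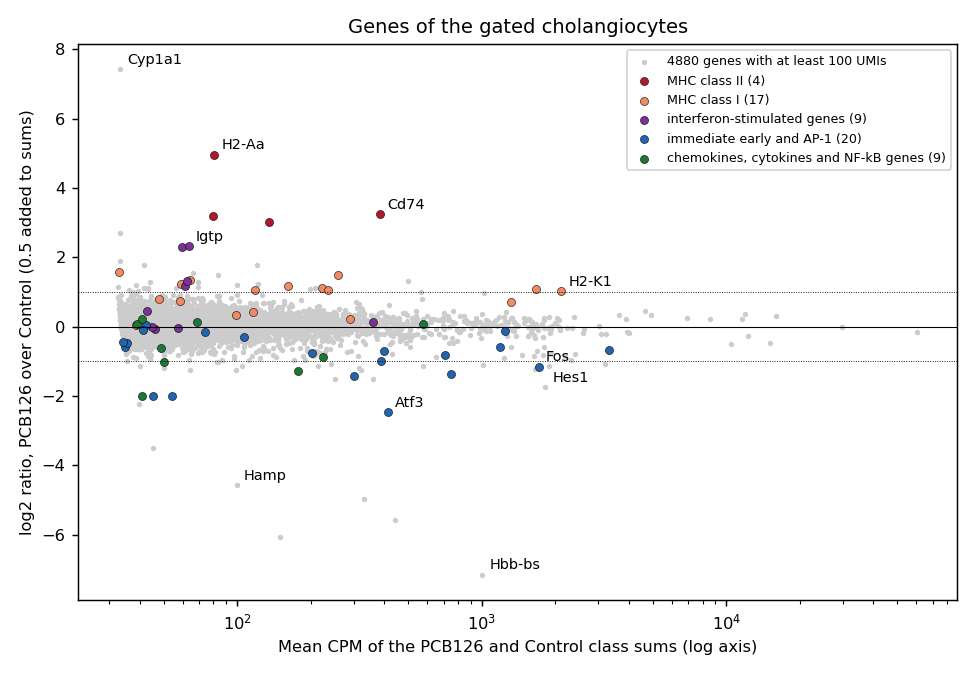
Each point is a gene with at least 100 UMIs in the cholangiocytes; the x axis (log scale) is its mean CPM over the PCB126 and Control class sums and the y axis its log2 ratio of PCB126 over Control, with dotted lines at 2-fold. MHC class II and class I genes lie above 0 and most immediate early genes below it, while 92.4% of the 4880 genes lie within 1.5-fold.

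Antigen presentation by MHC class I was higher as a group in PCB126 cholangiocytes. All 20 measured members of the list had a log2 ratio above 0, with a median of 1.03, and 11 were past 2-fold. H2-K1 (ENSMUSG00000061232), a classical class I heavy chain, stood at 2833 CPM in PCB126 cells and 1398 CPM in Control cells, a ratio of 2.03 (1.92 to 2.14). Scaled by the median ratio, it came just under 2-fold, at a log2 ratio of 0.93. H2-D1, the other classical heavy chain, stood at 2278 and 1064 CPM in PCB126 and Control cells, a ratio of 2.14 (2.01 to 2.28). B2m, the light chain shared by class I molecules, whose promoter with an ISRE core is printed above, was 1.65 times higher (1.54 to 1.76). The nonclassical H2-Q7 stood at 381 CPM in PCB126 cells and 135 CPM in Control cells, 2.83 times higher (2.39 to 3.36). The H2 genes are close copies of each other, so how reads were divided between H2-Q4, H2-Q6 and H2-Q7 is uncertain.

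The machinery that loads class I molecules was higher too. Tap1, a subunit of the peptide transporter, had 83 UMIs (49.4 CPM) in PCB126 cells and 21 UMIs (16.2 CPM) in Control cells, a ratio of 3.05 (1.87 to 5.19). Its partner Tap2 was 1.75 times higher (1.22 to 2.55), though below 0 (log2 -0.48) when each cell was thinned to 2000 UMIs. Before thinning Tap2 had 102 UMIs in PCB126 cells and 45 in Control cells, and thinning leaves fewer. The immunoproteasome subunits Psmb9 and Psmb8 were 2.39 (1.69 to 3.42) and 2.08 times higher (1.65 to 2.64), and Psmb8 came under 2-fold when thinned, at a log2 ratio of 0.63. Tapbp, the tapasin that bridges transporter and heavy chain, was 1.28 times higher (1.01 to 1.63), and Erap1, the peptide-trimming protease, had a log2 ratio of 0.05. Summed over the list, single PCB126 cholangiocytes held a median of 8718 CPM, with a lowest of 4227 and a highest of 16378 CPM. Control cholangiocytes held a median of 4224 CPM, with a lowest of 1693 and a highest of 8955 CPM. The cells of the libraries thus overlapped between 4227 and 8955 CPM. H2-K1 was also higher in the PCB126 library in the other gates, at 1875 and 1098.5 CPM in PCB126 and Control endothelial cells and at 1367 and 643 CPM in PCB126 and Control leukocytes. The leukocyte gate is a mixture of unlike makeup in the 2 libraries. Neutrophil markers summed to 13330 CPM in PCB126 and 62963 CPM in Control leukocytes, T and NK markers to 1517 and 147, and B cell markers to 1056 and 7821. Leukocyte levels here and below compare these unlike mixtures, not cells of one type.

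MHC class II genes, which present peptides to CD4 T cells and are typical of professional antigen-presenting cells, had the largest list median, 3.22. All 6 measured members of 8 were past 2-fold higher in PCB126 cells. Cd74, the invariant chain that guards the class II groove, had 1171 UMIs (697 CPM) in PCB126 cholangiocytes and 95 UMIs (73.2 CPM) in Control cholangiocytes, a ratio of 9.52 (7.72 to 11.9). H2-Aa, an alpha chain, had 263 UMIs (157 CPM) in PCB126 cells and 6 UMIs (4.62 CPM) in Control cells, 33.9 times higher (15.4 to 93.1). The chains H2-Ab1 and H2-Eb1 were 8.22 (5.88 to 11.8) and 9.31 times higher (5.90 to 15.5). H2-DMb1, which helps exchange peptides, was 3.14 times higher (1.80 to 5.81), and H2-DMa had 35 UMIs in PCB126 cells and 2 in Control cells. With each cell weighed equally, the log2 ratios of H2-Aa and H2-Eb1 were 6.12 and 3.86, against 4.97 and 3.19 for the class sums.

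The class II transcripts were spread over most PCB126 cholangiocytes. Cd74 had a UMI in 95.3% of the 86 PCB126 cells and in 40.3% of the 72 Control cells, and H2-Aa in 70.9% and 8.33%. After thinning to 2000 UMIs, Cd74 was seen in 51 of 86 PCB126 cells (59.3%, 48.2 to 69.8) and in 11 of 71 Control cells (15.5%, 8.00 to 26.0). As background, thinned endothelial cells, whose median depth was 6150.5 UMIs in the PCB126 library and 6624 UMIs in the Control library, showed Cd74 in 4.57% and 1.06%. H2-Aa was seen after thinning in 17.4% of PCB126 cholangiocytes and in 0 of 71 Control cholangiocytes. By the floor of 3 counts, 0 of 71 allows a share of up to 4.23% of cells with a UMI at this thinned depth, and says nothing of cells that express the gene without a UMI. The summed class II level per cell had a median of 1059.65 CPM in PCB126 cells (lowest 70.2, highest 9288) and 61.4 CPM in Control cells (lowest 0, highest 519). Across the 86 PCB126 cells, Cd74 and H2-Aa had a Spearman rho of 0.57, and of 0.37 after thinning, a description over cells that share a library.

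Class II levels in other cells of the same libraries stand beside these values. Cd74 stood at 10901 CPM in PCB126 leukocytes and 1603 CPM in Control leukocytes, and at 71.8 and 7.70 CPM in PCB126 and Control endothelial cells. PCB126 cholangiocytes held 6.40% of the leukocyte level of Cd74, and Control cholangiocytes 4.57%. The 6 leukocyte genes summed to 0.0439% and 0.121% of theirs, from 5 and 13 UMIs in PCB126 and Control cholangiocytes. With a profile of the other cells subtracted, scaled so that these leukocyte genes were used up, the median log2 ratio of the class II list was 3.26. That subtraction took only 0.0902% of PCB126 and 0.153% of Control UMIs. The part of leukocyte RNA in the class II levels was not tested. Dendritic cell markers summed to 92.3 CPM in PCB126 cholangiocytes and 42.4 CPM in Control cholangiocytes, with 6 and 8 of the 10 at 0 UMIs. Of their 155 UMIs in PCB126 cells and 55 in Control cells, 143 and 49 were of Bst2. That gene is given below among the interferon genes, so the sum says little about dendritic cell RNA.

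**Figure D2:**
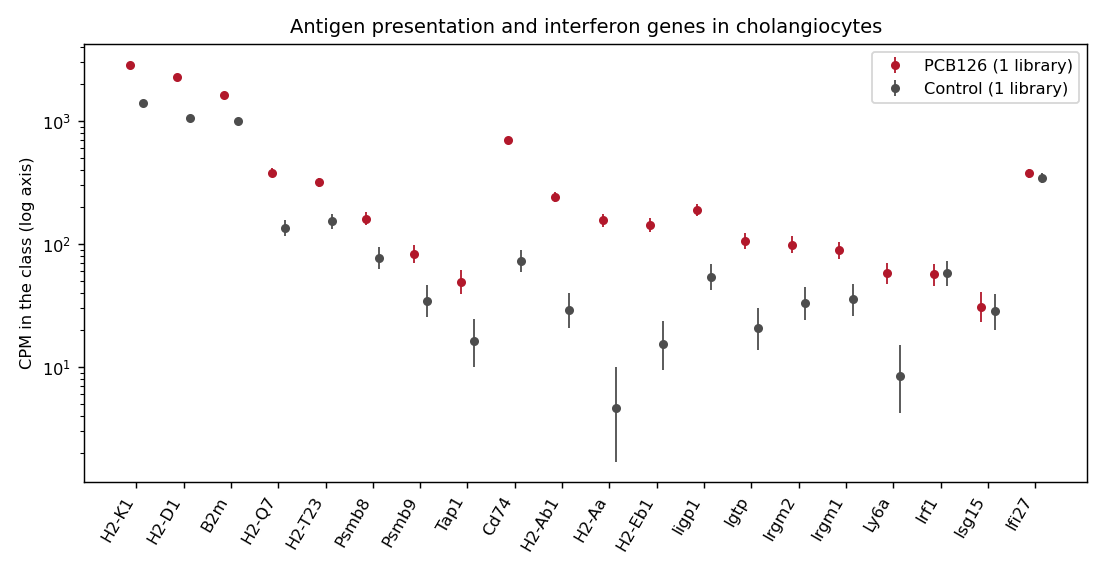
CPM (log axis) of antigen presentation and interferon genes in the summed cholangiocytes of the PCB126 library (red, left of each pair) and the Control library (grey), with exact Poisson intervals that cover counting error only. Class II genes such as Cd74 (697 against 73.2 CPM) differ most, while Irf1, Isg15 and Ifi27 lie at like levels.

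Most interferon-stimulated genes were higher in PCB126 cholangiocytes. Of 24 measured members 19 had a log2 ratio above 0, 8 were past 2-fold higher in PCB126 cells and 1 (Ifi27l2a) in Control cells, and the median was 0.50. The immunity-related GTPase Igtp, whose promoter holds a GAS motif and an ISRE core, stood at 106 CPM in PCB126 cells and 20.8 CPM in Control cells, 5.09 times higher (3.39 to 7.95). Irgm2, with the same pair of motifs, was 2.98 times higher (2.12 to 4.27). Irgm1, with 2 ISRE cores and no GAS motif in its window, was 2.50 times higher (1.79 to 3.56). Thinned to 2000 UMIs, Irgm2 and Irgm1 came under 2-fold, at log2 ratios of 0.69 and 0.59. Iigp1, of the same family, stood at 188 and 53.9 CPM in PCB126 and Control cells, 3.48 times higher (2.68 to 4.57). Ly6a, a surface antigen raised by interferons, had 97 UMIs in PCB126 cells and 11 in Control cells, 6.81 times higher (3.64 to 14.1).

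Some interferon genes stood nearly level. Isg15, a ubiquitin-like protein of the type I response, stood at 31.0 CPM in PCB126 cells and 28.5 CPM in Control cells, a ratio of 1.09 (0.699 to 1.70). Ifi27 stood at 375 and 344 CPM in PCB126 and Control cells. Irf1, an interferon-responsive transcription factor, stood at 56.6 and 57.8 CPM in PCB126 and Control cells, a ratio of 0.979 (0.715 to 1.34). Bst2, or tetherin, was 2.26 times higher in PCB126 cells (1.62 to 3.19), and Ifit1 2.46 times (1.38 to 4.63) with 51 and 16 UMIs in PCB126 and Control cells. Gbp2 had 46 UMIs in PCB126 cells and 5 in Control cells, but 35 of the 46 lay in 1 cell, and its log2 ratio of 2.71 was 1.34 without the top cell of each library. The summed level of 5 interferon GTPases per cell had a median of 296 CPM in PCB126 cells (highest 4730) and 142 CPM in Control cells (highest 749). Igtp stood at 26.5 and 8.61 CPM in PCB126 and Control endothelial cells, and at 48.4 and 5.49 CPM in PCB126 and Control leukocytes.

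**Figure D3:**
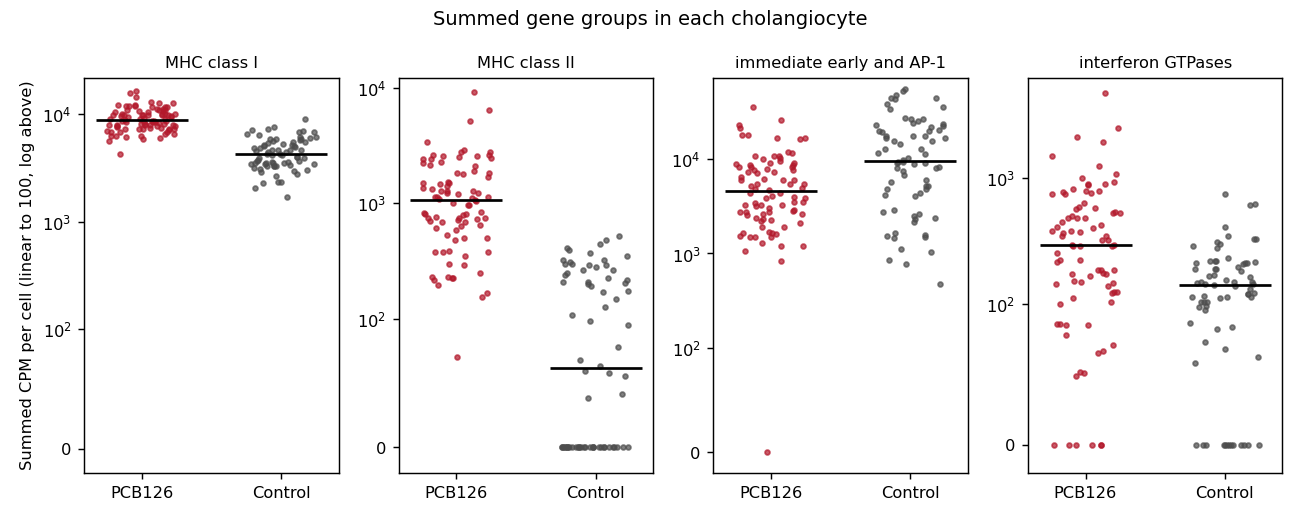
Each point is 1 cholangiocyte, with PCB126 cells left (red) and Control cells right (grey); the y axis is the summed CPM of a gene list in that cell (linear to 100, log above) and black lines are medians. Class I medians are 8718 CPM in PCB126 cells and 4224 CPM in Control cells, and immediate early medians 4613 and 9670.28 CPM in PCB126 and Control cells.

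Cyp1a1, the standard readout of AHR activation, was detected in PCB126 cholangiocytes and not in Control ones, but at a low level that few cells carried. It had 111 UMIs (66.1 CPM) in the PCB126 cells and 0 UMIs in the Control cells, at least 28.6-fold higher against 3 counts over the class. The UMIs lay in 19 of 86 PCB126 cells (22.1%), and by the floor of 3 counts 0 of 72 Control cells allows a share of up to 4.17% of cells with a UMI, which is no limit on cells that express the gene. Of the 111 UMIs 67 lay in 3 cells, with 24, 22 and 21 each, and the remaining 83 cells held 44 UMIs, or 27.8 CPM, in 16 cells. The 2 cells with 24 and 21 Cyp1a1 UMIs also held 100 of the 109 Apoa1 UMIs and 30 of the 55 UMIs of Cyp1a2, a monooxygenase of hepatocytes. Hepatocyte markers, Apoa1 among them, summed to 18774 and 12715 CPM in these 2 cells. The median PCB126 cholangiocyte held 5392 CPM of these markers, and the cell with 22 Cyp1a1 UMIs 2998 CPM. The part of hepatocyte RNA in these cells was not tested. The cell with 22 Cyp1a1 UMIs held 152 of the 220 S100a6 UMIs and all 5 Cyp1b1 UMIs of the class.

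The surrounding PCB126 cells carried far more Cyp1a1. It stood at 4895 CPM in PCB126 endothelial cells and 180 CPM in Control endothelial cells, and at 10.4 CPM in PCB126 leukocytes and 0.621 CPM in Control leukocytes. The cholangiocyte level was 1.35% of that in PCB126 endothelial cells, beside 0.333% for the summed sinusoidal and 0.849% for the summed vascular endothelial markers. Thinned to 2000 UMIs, Cyp1a1 was seen in 12.8% of PCB126 cholangiocytes (6.56 to 21.7) and in 97.1% of PCB126 endothelial cells. Among PCB126 leukocytes it was seen in 1.92%, at a median depth of 7127 UMIs against 15955.5 UMIs in cholangiocytes. The part of RNA from neighbouring cells in the cholangiocyte level was not tested.

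Other AHR genes stood on either side of level. Of 20 listed AHR battery genes 8 were measured, 5 with a log2 ratio above 0, 2 past 2-fold higher in PCB126 cells (Cyp1a1 and Cyp1a2) and 1 in Control cells (Cyp2s1, with 10 and 18 UMIs in PCB126 and Control cells). Their median was 0.32, and the same with Cyp1a1 put at its bound. Cyp1a2 had 55 UMIs in PCB126 cells and 2 in Control cells, a log2 ratio of 4.10, or 2.94 without the cells that stood apart. Tiparp, a feedback repressor of the AHR, was 1.80 times higher in Control cells (1.11 to 2.95), with 31 UMIs in PCB126 cells and 43 in Control cells. Nqo1, a quinone reductase, had 10 and 4 UMIs in PCB126 and Control cells, and Ahrr none in either library. The receptor itself, Ahr, stood at 25.6 CPM in PCB126 cells and 29.3 CPM in Control cells, a ratio of 0.874 (0.552 to 1.39), and its partner Arnt at 36.3 and 36.2 CPM. The 7 measured members of the receptor complex had a median of -0.10, with 2 above 0 and none past 2-fold.

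Antioxidant genes lay slightly above the background, and glutathione S-transferase genes near it. Of 27 measured NRF2 and antioxidant genes 21 had a log2 ratio above 0 and none was past 2-fold. Their median was 0.23, beside 0.08, with 58.7% above 0, over all genes with at least 20 UMIs. Over 17 alternatives the antioxidant median ranged between -0.15 and 0.27, and it was below 0 in 1 of them. Nfe2l2, which encodes NRF2, stood at 323 CPM in PCB126 cells and 248 CPM in Control cells, whereas Osgin1, an NRF2-responsive gene, stood at 313 and 344 CPM in PCB126 and Control cells. Among 15 glutathione S-transferase genes, with a median of 0.01, 1 was past 2-fold. That gene, Gstp1, stood at 139 CPM in PCB126 cells and 60.1 CPM in Control cells, 2.32 times higher (1.79 to 3.03), and its near-identical copy Gstp2 makes the split of reads uncertain. Metallothioneins, which bind zinc and copper, were lower in PCB126 cells. Mt1 stood at 361 CPM in PCB126 cells and 786 CPM in Control cells, 2.18 times higher in Control cells (1.97 to 2.41), and Mt2 at 133 and 294 CPM in PCB126 and Control cells, 2.21 times (1.87 to 2.61). Thinned to 2000 UMIs, both came under 2-fold, at log2 ratios of -0.94 and -0.64.

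**Figure D4:**
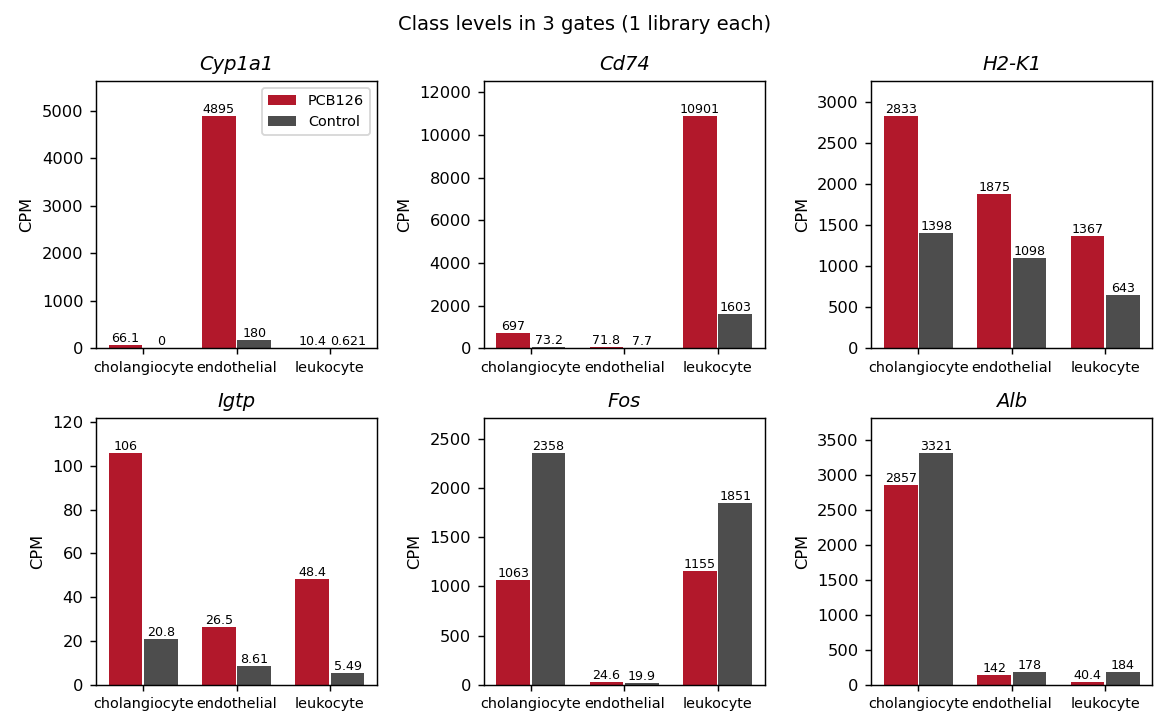
CPM of 6 genes (bars from 0, one linear scale per panel) in cholangiocytes, endothelial cells and leukocytes of the PCB126 library (red, left of each pair) and the Control library (grey), 1 library each. Cyp1a1 is high in PCB126 endothelial cells (4895 CPM) and low in cholangiocytes (66.1 CPM), whereas Igtp is highest in PCB126 cholangiocytes (106 CPM) and Alb is high in cholangiocytes of both libraries.

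Immediate early genes, which cells switch on within minutes of a stimulus and also during tissue dissociation, were lower in PCB126 cholangiocytes. Of 24 measured members 23 had a log2 ratio below 0, 11 were past 2-fold higher in Control cells and none in PCB126 cells, and the median was -0.79. Fos, an AP-1 subunit, stood at 1063 CPM in PCB126 cells and 2358 CPM in Control cells, 2.22 times higher in Control cells (2.09 to 2.35). Jun, its partner, stood at 2569 and 4051 CPM in PCB126 and Control cells, 1.58 times (1.51 to 1.64). Egr1 was 2.55 times higher in Control cells (2.33 to 2.80) and Ier2 2.71 times (2.34 to 3.14). Atf3, a stress-responsive repressor, had 212 UMIs in PCB126 cells and 909 in Control cells, 5.55 times higher in Control cells (4.77 to 6.47). Of the 212, 127 lay in 1 cell, and without the top cell of each library the log2 ratio was -3.54 in place of -2.47. Jund, whose product is more constant in most cells, stood at 1190.44 and 1293 CPM in PCB126 and Control cells.

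These genes varied among cells within each library. The summed list had a median of 4613 CPM per cell in PCB126 cells (lowest 0, highest 36054) and 9670.28 CPM in Control cells (lowest 471, highest 55905), so the cells overlapped over most of the range. After thinning, Fos and Jun had a Spearman rho of 0.60 across the 86 PCB126 cells and 0.70 across 71 Control cells, a description over cells of 1 library each. In endothelial cells of the same suspensions Fos stood at 24.6 CPM in the PCB126 library and 19.9 CPM in the Control library, and in leukocytes at 1154.5 and 1851 CPM in PCB126 and Control cells. The part of handling during dissociation in these levels was not tested.

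Hes1, a transcriptional repressor and target of Notch, was 3.36 times higher in Control cholangiocytes (3.16 to 3.58), at 833 CPM in PCB126 cells and 2801 CPM in Control cells. Among 7 measured Notch pathway genes 2 had a log2 ratio above 0, and Hes1 was the 1 past 2-fold. Jag1, a Notch ligand, was 1.69 times higher in PCB126 cells (1.32 to 2.17), though nearly level when thinned (log2 0.07), and the receptor Notch2 stood at 76.2 and 102 CPM in PCB126 and Control cells. Hes1 and Jun had a rho of 0.23 across the 86 thinned PCB126 cells and 0.64 across the 71 thinned Control cells. Id3 and Id1, inhibitors of basic helix-loop-helix factors and targets of BMP signalling, were 2.84 (2.49 to 3.26) and 2.35 times higher in Control cells (2.05 to 2.71).

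Chemokine and NF-kB genes were lower by their median, though some members were higher, up to a log2 ratio of 0.51. Of 20 measured members 8 had a log2 ratio above 0, none was past 2-fold higher in PCB126 cells and 8 were past 2-fold higher in Control cells, with a median of -0.48. Cxcl1, a neutrophil-attracting chemokine, had 27 UMIs in PCB126 cells and 85 in Control cells, 4.07 times higher in Control cells (2.62 to 6.54). Nfkbiz, an inducible regulator of NF-kB, stood at 104 and 250 CPM in PCB126 and Control cells, 2.41 times (2.00 to 2.91). Nfkbia, the inhibitor IkB-alpha, was 1.84 times higher in Control cells (1.57 to 2.16). Icam1, an adhesion molecule for leukocytes, was 2.01 times higher in Control cells (1.42 to 2.87), with 56 UMIs in PCB126 cells and 87 in Control cells. Its log2 ratio was -0.48 when thinned, which leaves fewer UMIs. Cxcl5 had 2 UMIs in PCB126 cells and 23 in Control cells, of which 21 lay in 1 cell, and its log2 ratio of -3.60 was -1.11 without the top cell of each library. Lcn2, a siderophore-binding protein that neutrophils also make, stood at 1059 CPM in PCB126 cells and 1867 CPM in Control cells, 1.76 times higher in Control cells (1.66 to 1.87). Socs3, a brake on cytokine signalling, was 4.06 times higher in Control cells (2.66 to 6.34), with 30 UMIs in PCB126 cells and 94 in Control cells.

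The duct programme itself differed little. Of 31 measured identity genes outside the gate 20 had a log2 ratio above 0 and none was past 2-fold, with a median of 0.12. Clu, the chaperone clusterin, stood at 8631 CPM in PCB126 cells and 12203 CPM in Control cells, 1.41 times higher in Control cells (1.38 to 1.45), whereas Pkhd1 was 1.58 times higher in PCB126 cells (1.38 to 1.81). Among 26 bile secretion genes the median was 0.14, and 1 was past 2-fold. Abcc4, an efflux pump for bile acids and cyclic nucleotides, had 69 UMIs in PCB126 cells and 23 in Control cells, 2.32 times higher (1.43 to 3.895), with a log2 ratio of 0.46 when thinned. Cftr had a ratio of 1.20 (0.799 to 1.81), Sctr 1.23 (0.701 to 2.20), the anion exchanger gene Slc4a2 0.831 (0.605 to 1.14) and the bile acid uptake carrier Slc10a2 1.26 (0.649 to 2.50). At 16 to 85 UMIs per library, each of these 4 intervals holds a difference of 1.5-fold in at least one direction. Such a difference is thus not excluded in that direction.

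Lists of structure and stress lay near the background or slightly above it. Cilium genes had a median of 0.14 (10 of 15 above 0), tight junction genes 0.20 (10 of 16), keratins 0.13 (4 of 5) and YAP targets 0.26 (12 of 17), with none past 2-fold in these lists. Thinned to 2000 UMIs, the cilium median was -0.28. Before thinning the cilium genes summed to only 1148 UMIs in PCB126 cells and 830 in Control cells. Heat shock chaperones had a median of -0.03 and moved both ways. The cochaperone Chordc1 was 2.21 times higher in PCB126 cells (1.49 to 3.34), or just under 2-fold without the deepest 5% of cells (log2 0.98), and Dnajb1 was 2.40 times higher in Control cells (1.76 to 3.32). Genes of cholesterol synthesis and lipid handling lay below the background. Their median was -0.29 with 7 of 24 above 0, beside 0.08 and 58.7% over all genes with at least 20 UMIs. Over 17 alternatives that median ranged between -0.37 and -0.13. Of 80 cytosolic ribosomal protein genes 40 were above 0, with a median of 0.00, and 2 (Rps28 and Rps29) were past 2-fold higher in Control cells.

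**Figure D5:**
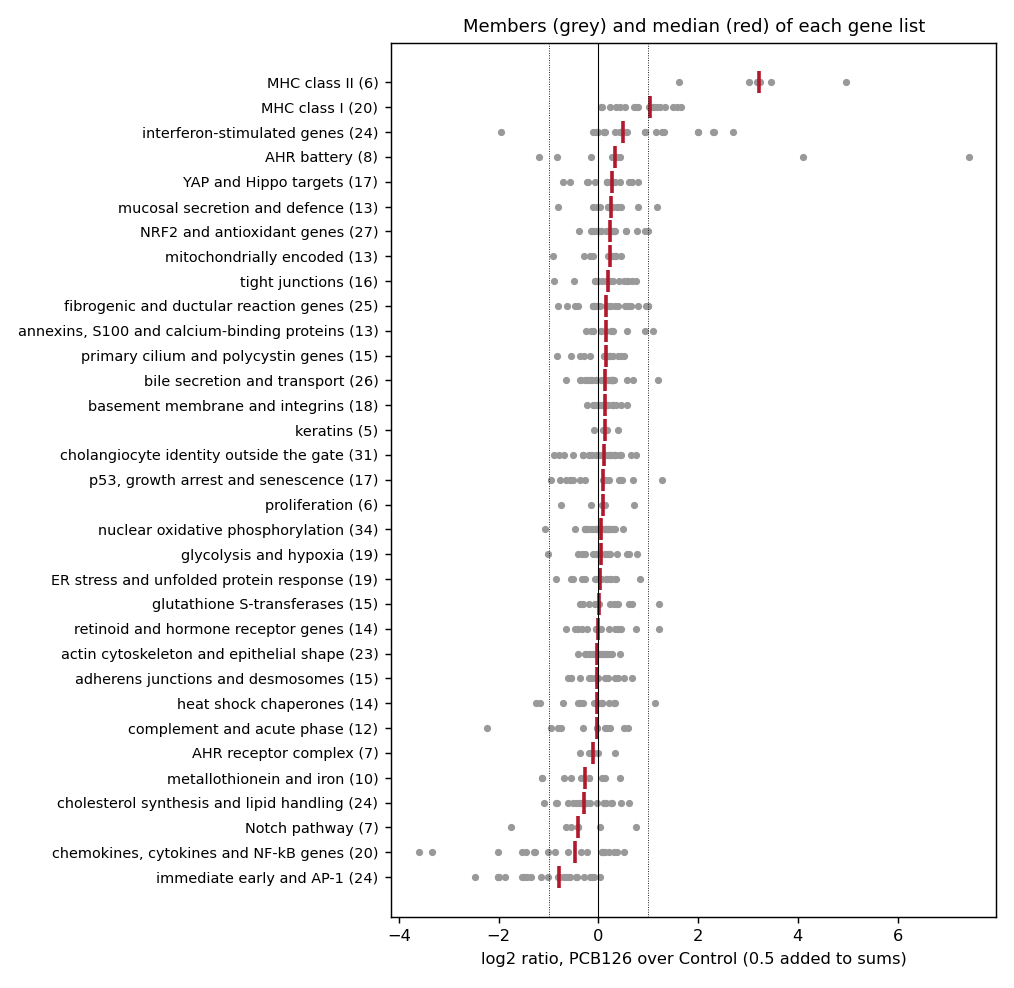
Each row is 1 of 33 gene lists (marker lists of other cell types are not shown) with the number of measured members in parentheses; grey points are the members' log2 ratios of PCB126 over Control in cholangiocytes, the red bar is their median and dotted lines mark 2-fold. Class II (3.22) and class I (1.03) medians lie highest and the immediate early median (-0.79) lowest, while most other medians lie between -0.5 and 0.5.

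Some genes past 2-fold belong to none of the groups above. Il1r1, the receptor of interleukin 1, stood at 123 CPM in PCB126 cells and 43.2 CPM in Control cells, 2.86 times higher (2.12 to 3.91). Ptgfr, a prostaglandin F receptor, was 3.05 times higher (1.87 to 5.19), Mylk, the myosin light chain kinase, 2.35 times (1.86 to 3.001) and Anxa3, a calcium-dependent membrane-binding protein, 2.13 times (1.78 to 2.56). These genes fall outside the 12 named on the PCB126 side and were picked after their values were seen. Gdf15, a stress cytokine, had 88 UMIs in PCB126 cells and 18 in Control cells, with 41 of the 88 in 1 cell. Its log2 ratio of 1.89 was 1.24 without the top cell of each library and 1.03 without the highest Scrublet doublet scores. Hamp, which encodes the iron hormone hepcidin, had 13 UMIs in PCB126 cells and 248 in Control cells, 24.7 times higher in Control cells (14.2 to 47.0). It had a UMI in 4.65% of PCB126 cells and 37.5% of Control cells.

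Transcripts of hepatocytes were present in cholangiocytes of both libraries and were mostly lower in PCB126 cells. Of 13 measured hepatocyte markers 3 had a log2 ratio above 0, 2 were past 2-fold higher in PCB126 cells (Apoa1 and Serpina1a, with 46 of the 56 Serpina1a UMIs in the cells that stood apart) and 5 in Control cells, with a median of -0.98. Their summed level per cell ranged from 2034 to 18774 CPM in PCB126 cells and from 1658 to 22579 CPM in Control cells. Alb, albumin, stood at 2857 CPM in PCB126 cells and 3321 CPM in Control cells, and had at least 1 UMI in every cholangiocyte. In endothelial cells it stood at 142 and 178 CPM, and in leukocytes at 40.4 and 184 CPM, in the PCB126 and Control libraries in that order. Ahsg, or fetuin A, stood at 640.2 and 1383 CPM in PCB126 and Control cholangiocytes, 2.16 times higher in Control cells (2.00 to 2.33), and Apoc1 at 1183 and 2572 CPM, 2.17 times (2.06 to 2.30). When thinned, Apoc1 came under 2-fold, at a log2 ratio of -0.94. Apoa1 was 3.51 times higher in PCB126 cells (2.24 to 5.71), a direction that turned without the cells that stood apart (log2 -1.78) and with each cell weighed equally (-0.47).

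Transcripts of blood cells moved with the library. Erythrocyte markers summed to 56.0 CPM in PCB126 cholangiocytes and 3824 CPM in Control cholangiocytes, and all 5 measured were lower in PCB126 cells. Hbb-bs stood at 13.7 CPM in PCB126 cells and 1998 CPM in Control cells, and at 10.1 and 376 CPM without the cells that stood apart. Igkc, an immunoglobulin light chain, had 12 UMIs in PCB126 cells and 108 in Control cells, with at most 6 in a cell. Hp, haptoglobin, a member of the complement and acute phase list, stood at 13.7 and 65.5 CPM in PCB126 and Control cholangiocytes. It was 4.78 times higher in Control cells (2.99 to 7.95). Its log2 ratio of -2.24 was -3.27 without the cells that stood apart. It stood at 163 and 1429.5 CPM in PCB126 and Control leukocytes. The part of RNA from blood cells or from hepatocytes in these cholangiocyte levels was not tested.

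Among the cholangiocytes themselves, few genes varied far beyond the rest. After thinning, Msmp had the largest ratio of variance to mean in PCB126 cells, 22.2, against a median of 1.02 over 1632 genes with a mean of at least 0.2 UMIs. It is named by symbol only here. Msmp was detected in 42 of 86 PCB126 cells, and 5 cells held 54.0% of its 2266 UMIs. In Control cells its ratio was 12.3, after 3 haemoglobin genes and the nuclear RNA Malat1. Fos, Jun, Junb, Egr1 and Fosb were among the 10 most variable genes in PCB126 cells, and Jun and Hes1 among those in Control cells. Apoe, which carries lipids between cells, and Ahsg were among them in both libraries. S100a6, a calcium-binding protein, was also among them in PCB126 cells, with 152 of its 220 UMIs in 1 cell. Its log2 ratio of 0.93 turned to -0.47 without the top cell of each library and to -0.81 without the cells that stood apart.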

How the data were processed

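The deposited files held a matrix of UMI counts per gene and barcode for each library, with gene and barcode tables, made by the authors with Cell Ranger 6.0.0 per the file headers. Per the submitters' processing notes, version 6.1.1 of that tool was used, with Seurat 4.0.1. No source used here gives the genome build. The 4307 PCB126 and 8550 Control barcodes were filtered and gated as described with Python 3.11.15, numpy 2.4.6, scipy 1.17.1 and pandas 2.3.3. The members and lists were chosen with earlier results of these data known. UMIs were summed over cholangiocytes per library, scaled to the class total and compared as PCB126 over Control with exact conditional binomial 95% intervals. Log2 ratios add 0.5 to each sum. Named genes were, per direction, the 12 with at least 100 UMIs and a UMI in at least 10% of cells whose interval bound nearest 1 was farthest from it, plus up to 4 members of each list. Some items that this rule names are not reported here. Shares of cells with a UMI were compared after thinning each cell to 2000 UMIs, which left out 1 Control cholangiocyte. Doublets were kept, and an alternative left out the highest Scrublet scores (11 PCB126 and 28 Control barcodes, of which 3 and 1 were cholangiocytes). The code was tested on simulated data. Droplets lose most RNA molecules, so low counts bear wide intervals, and intervals and floors cover counting error only.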

Additional observations from a re-analysis of the deposited data

How the results depend on the processing

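The ratio of cholangiocyte shares, 1.96, was 3.62 with at most 10% mitochondrial UMIs, 1.18 with at most 50% and 0.780 among cells with at most 1 Ptprc UMI. Genes past 2-fold higher in PCB126 cells numbered 43, against 6 when thinned to 2000 UMIs, 1727 with no minimum of UMIs, 92 at 50 and 23 at 200 UMIs. Genes past 2-fold higher in Control cells numbered 36, against 18 when thinned and 1576 with no minimum. Fewer genes reach 100 UMIs after thinning (371 against 4880), and with no minimum single UMIs pass 2-fold. Of 131 named genes 108 had an interval without 1, and 6 of these changed side under some alternative. Apoa1 (log2 1.79) was -1.78 without the cells that stood apart and -0.47 with cells weighed equally. S100a6 (0.93) was -0.49 without high Scrublet scores, -0.81 without the cells that stood apart and -0.47 without its top cell. Under thinning, Bicc1 (0.14) was -0.088, Gbp2 (2.71) -0.28, Pigr (0.26) -0.033 and Tap2 (0.80) -0.48. Before thinning, Gbp2 held 46 and 5 UMIs and Tap2 102 and 45 in PCB126 and Control cells, and thinning leaves fewer. The cause of these changes was not tested. Of 63 named genes past 2-fold, 15 came under it in some alternative, and 40 of the 131 moved by over 1.5 times, or 19 with thinning aside. Beside those given above, Ly6a (2.71) was 3.41 at 10% mitochondrial UMIs, H2-DMa (3.46) was 5.40 without the deepest 5% of cells, Hamp (-4.57) was -5.21 without its top cell, and with cells weighed equally Socs3 (-2.00) was -2.71, Igkc (-3.49) -4.32 and Ifit1 (1.27) 2.29. Without the deepest 5% of cells Cxcl1 (-2.01) was -2.99, and with the library profile subtracted Hbb-bs (-7.16) was -12.44. Over 17 alternatives the class I median ranged between 0.95 and 1.10, the class II median between 3.01 and 3.65, the interferon median between 0.41 and 0.58, the immediate early median between -1.20 and -0.73 and the chemokine median between -0.79 and -0.28. Subtraction of background RNA (0.173% of PCB126 and 0.310% of Control UMIs, or 0.0902% and 0.153% when scaled to leukocyte genes), the share among cells with few Ptprc UMIs and leaving out the cells that stood apart were chosen after seeing the data. A profile from barcodes under 200 UMIs was not run, since the lowest barcode held 865 UMIs in the PCB126 library and 534 in the Control library. No paired analysis was possible because each group has 1 library.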

Other observations

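Further gene lists give values that belong in no comparison above, each as measured members, members with a log2 ratio of PCB126 over Control above 0 and the median. Fibrogenic and ductular reaction genes had 15 of 25 above 0 with a median of 0.16, and basement membrane and integrin genes 13 of 18 with 0.13, with none past 2-fold in either list. ER stress genes had 12 of 19 above 0 with a median of 0.04, and actin and cell shape genes 11 of 23 with -0.02. Genes encoded by the mitochondrial genome had 9 of 13 above 0 with a median of 0.22, beside a median mitochondrial share of 8.12% in PCB126 cells and 6.75% in Control cells. Nuclear genes of oxidative phosphorylation had 21 of 34 above 0 with a median of 0.06. Few proliferation genes were measurable, 6 of 18. Smooth muscle markers summed to 75.6 CPM in PCB126 cholangiocytes and 149 CPM in Control cholangiocytes, with 4 and 3 of the 5 at 0 UMIs, and B cell markers to 5.36 and 29.3 CPM, with 5 and 6 of the 8 at 0 UMIs.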
